A study of Mus musculus with 16 samples.

Results

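The genes described here are 10 transcription regulators of male meiosis and sperm formation, taken by symbol from 55414 gene IDs in the deposited tables: Mybl1, Tcfl5, Rfx2, Rfx4, Crem, Sox30, Ovol1, Pou5f2, Taf7l and Tbpl1. All 10 were found in every table. They were measured by RNA-seq of whole mouse testis at postnatal day 14 (P14) and 16 (P16), in 16 libraries. Ythdc2, the gene removed in the conditional knockout (cKO), encodes an RNA helicase that binds methylated RNA and is needed in meiotic germ cells.

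Per the labels, control and Ythdc2 cKO mice had tamoxifen at 10 mg/ml on P12 and P13, and the Cre control samples carry the same treatment text. Tamoxifen activates an inducible Cre recombinase, so all groups share the drug. The labels give the genotypes only as control, Cre control and Ythdc2 conditional knockout, and the columns of the controls are headed WT. The Cre driver and the cells in which it acts are not given in the sources used here. There were 2 control, 2 Cre control and 3 cKO libraries at P14, and 2 control, 4 Cre control and 3 cKO libraries at P16. The controls and cKO libraries 1 and 2 of each stage were depleted of ribosomal RNA with one kit (Ribo-Zero, "the first kit"), and the Cre controls and cKO library 3 of each stage with another (NEBNext, "the second kit"). Nothing in the labels says that replicates came from separate animals, so p-values measure the spread between these libraries, which may be technical.

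In the first round of spermatogenesis, germ cells in the testis go through early meiotic prophase and reach the pachytene stage at about the ages sampled. Pachytene cells switch on a large program of genes that serves the rest of meiosis and, later, the building of the sperm. MYBL1 (A-MYB) is its best known activator and also drives the pachytene piRNA loci, and TCFL5 is a basic helix-loop-helix factor that binds many of the same promoters. RFX2 and RFX4 belong to the RFX family, which turns on cilium and flagellum genes. CREM, SOX30 and TBPL1 (a relative of the TATA-binding protein, also called TRF2) are needed for the gene program of spermatids. OVOL1 is a zinc finger factor of pachytene cells, POU5F2 (SPRM1) is a POU-domain factor of male germ cells, and TAF7L is the germ-cell relative of the TFIID subunit TAF7, encoded on the X chromosome.

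Promoters are shown for 4 of the genes. Tcfl5 and Rfx2 moved together in these libraries, Taf7l moved against them, and Pou5f2 changed most with age. Each sequence is the RefSeq window (GRCm38.p6) from 250 bases before to 50 bases after an annotated start site, 5′ to 3′ on the gene's strand. The files themselves were made on build GRCm39, so these coordinates belong to the reference table and not to the measurements. Capitals mark matches, on either strand, to a MYB site (TAACNG or CAACNG), the RFX half-site GTTGCC, the cAMP-response element TGACGTCA and the E-box CACGTG.
Tcfl5, chr2:180642642-180642941, minus strand: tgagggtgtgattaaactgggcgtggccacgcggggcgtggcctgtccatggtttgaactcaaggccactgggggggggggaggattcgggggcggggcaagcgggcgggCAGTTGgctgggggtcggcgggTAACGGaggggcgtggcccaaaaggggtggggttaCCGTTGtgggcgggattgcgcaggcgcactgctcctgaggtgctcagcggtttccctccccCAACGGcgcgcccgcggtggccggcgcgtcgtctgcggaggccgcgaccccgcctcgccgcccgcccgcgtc
Rfx2, chr17:56830959-56831258, minus strand: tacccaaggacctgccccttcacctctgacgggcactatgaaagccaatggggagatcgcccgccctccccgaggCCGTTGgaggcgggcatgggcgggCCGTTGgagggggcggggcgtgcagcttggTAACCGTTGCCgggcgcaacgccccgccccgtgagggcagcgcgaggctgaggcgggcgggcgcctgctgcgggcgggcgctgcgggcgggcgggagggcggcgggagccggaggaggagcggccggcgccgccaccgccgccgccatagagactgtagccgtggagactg
Taf7l, chrX:134476441-134476740, minus strand: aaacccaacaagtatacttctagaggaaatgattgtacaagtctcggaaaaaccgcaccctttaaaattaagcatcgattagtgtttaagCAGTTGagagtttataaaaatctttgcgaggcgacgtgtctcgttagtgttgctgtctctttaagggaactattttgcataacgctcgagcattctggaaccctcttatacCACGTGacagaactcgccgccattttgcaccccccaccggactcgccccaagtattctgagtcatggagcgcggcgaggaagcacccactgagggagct
Pou5f2, chr13:78024652-78024951, plus strand: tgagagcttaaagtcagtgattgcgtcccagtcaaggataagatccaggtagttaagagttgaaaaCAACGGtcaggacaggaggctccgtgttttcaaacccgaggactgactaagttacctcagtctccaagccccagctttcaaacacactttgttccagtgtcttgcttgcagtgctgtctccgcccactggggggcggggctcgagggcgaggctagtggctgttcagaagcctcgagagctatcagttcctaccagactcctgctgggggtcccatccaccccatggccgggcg
The Tcfl5 window holds 4 MYB matches, and their first bases lie at -140, -118, -83 and -22 from the start site. The Rfx2 window also holds 4, at -175, -151, -121 and -118, and the last of them overlaps both the match before it and an RFX half-site at -116. The Taf7l window holds 1 MYB match at -160 and an E-box at -49, and the Pou5f2 window holds 1 MYB match at -184. Among 32851 RefSeq mouse promoter windows of the same 300 bases, 49.66% hold at least 1 MYB match and 1.221% hold at least 4. The RFX half-site is in 12.51% of them, the E-box in 7.15% and the cAMP-response element in 1.79%. A match describes letters only and shows no binding. Of the 10 genes, 7 had a RefSeq window, and Mybl1, Crem and Ovol1 had none in the table. Of the genes whose windows are not printed, Tbpl1 holds 0 MYB matches and Sox30 1, and Rfx4 has 2 windows with 0 and 3.

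Reads on genes ranged from 22220565 to 27531529 per library with the first kit and from 14494867 to 23200252 with the second. Each deposited value is a read count divided by a scaling factor of its library, computed anew for each of the 4 tables, so deposited values are compared only within a table. Ythdc2 (ENSMUSG00000034653) measured 2666 and 2609 in P16 control testes, against 501.7 and 540.6 in cKO of that table. This was 19.8% of control on the log2(value + 1) scale. At P14 it measured 2027 and 2262 in control testes, against 658.3 and 753.2 in cKO, 32.9% of control. Against the Cre controls it was at 19.5% at P16 and 33.7% at P14, and no cKO library reached any control in any of the 4 tables. Markers of meiotic cells were present: the 6 pachytene markers summed to 1579 and 1597 CPM (reads relative to the TMM-scaled library size) in the P16 controls of the first kit. Of the 7 spermatid markers, Tnp2 and Prm2 had 0 reads in all 16 libraries, and Prm1 had 0 in 15. Acrv1 had 0 to 6 reads per library, Tnp1 1 to 6, Tssk6 6 to 25 and Spaca1 36 to 209.

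The levels of the 10 genes spanned a wide range when expressed as RPKM, which is CPM divided by the exon length in kilobases. In the P16 controls, Taf7l was highest at 116 RPKM (114 and 117 in the 2 libraries). Tcfl5 followed at 45.1 RPKM (44.5 and 45.6). Tbpl1, at 25.8 and 26.0, and Mybl1, at 25.7 and 26.0, were not separable by their spread. The same held for the next pair, Sox30 at 9.40 and 9.88 and Rfx2 at 9.53 and 9.64 RPKM. Crem was at 7.44 and 7.48, Rfx4 at 3.68 and 4.36, Pou5f2 at 2.92 and 3.33, and Ovol1 at 0.971 and 1.10 RPKM. In the P14 controls the order was the same at the top, with Taf7l at a mean of 128 and Tcfl5 at 27.8 RPKM, and it ended with Ovol1 at 0.975 and Pou5f2 at 0.170. In the P16 cKO libraries Taf7l was at 65.1 and 69.7 RPKM and Tcfl5 at 43.3 and 47.0, and Mybl1, at 31.8 and 35.5, stood apart from Tbpl1, at 25.8 and 26.4. Crem counts join all isoforms of that gene, activators and repressors alike.

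**Figure D1:**
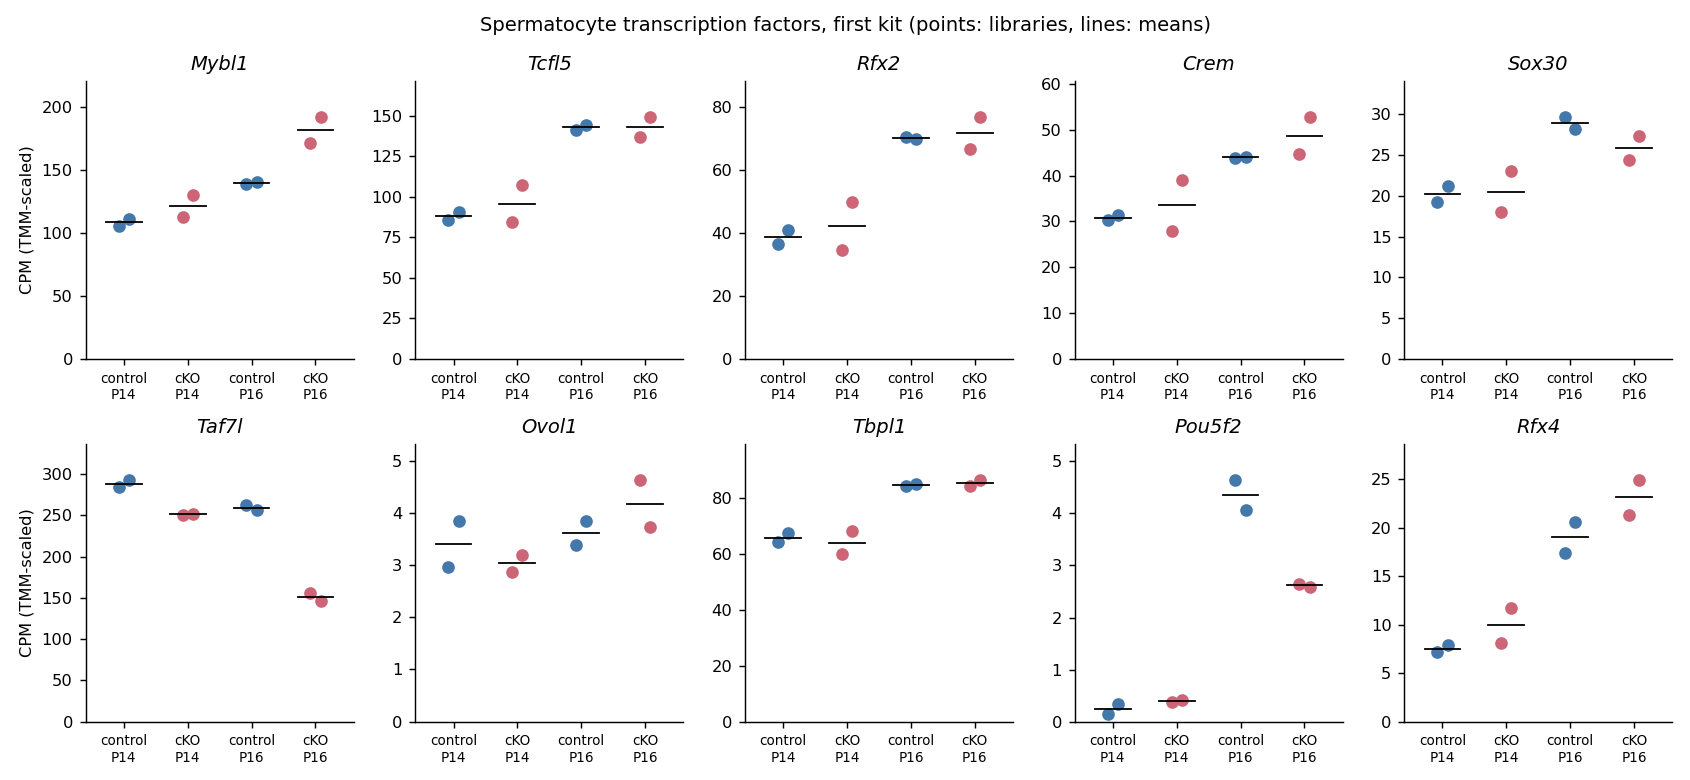
CPM (TMM-scaled, y axis from 0) of each of the 10 genes in the 8 libraries of the first kit, by stage and genotype on the x axis, with a point for each library and a line at the mean of 2. Taf7l fell to 146 and 156 CPM in the P16 cKO libraries, from 257 and 262 in the P16 controls, and Pou5f2 stayed under 0.5 in the 4 P14 libraries.

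The normal course of the genes was read from the controls of the first kit. Between P14 and P16, 8 of the 10 rose, led by Pou5f2, Rfx4 and Rfx2, while Taf7l fell slightly and Ovol1 did not pass the test. Of all genes tested, 20.0% changed, 13.3% rose and 6.67% fell (2475 against 1239 genes, or 2165 against 2099 with quantile scaling). A gene is said to have changed, here and below, when its limma p adjusted over all genes tested was under 0.05. The median change of the 10 genes was 0.52 on the log2 scale, against -0.01 for all genes.

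Pou5f2 (ENSMUSG00000093668) went from 3 and 7 reads in the P14 controls to 4.07 and 4.64 CPM at P16, a log2 change of 4.08 ± 0.34 (SE, adjusted p = 1.84e-04). It passed the low-read filter through the P16 libraries only, so that some difference was built in. Rfx4 (ENSMUSG00000020037) rose 2.53-fold, by 1.34 ± 0.17 (adjusted p = 5.58e-04). Rfx2 (ENSMUSG00000024206) rose 1.83-fold, by 0.87 ± 0.14 (adjusted p = 0.00223). These 3 had the largest rises of the set. Tcfl5 (ENSMUSG00000038932) rose by 0.71 ± 0.10 (adjusted p = 8.30e-04). Sox30 (ENSMUSG00000040489) and Crem (ENSMUSG00000063889) rose by 0.53 and 0.52, and Mybl1 (ENSMUSG00000025912) and Tbpl1 (ENSMUSG00000071359) by 0.38 each. In all 8 of these genes both P16 control libraries lay above both P14 ones. The genes were called from the same libraries, so this is no further support. The share of all genes separated in this way was not counted. Taf7l (ENSMUSG00000009596) fell by 0.14 ± 0.04 (adjusted p = 0.0496), from 284 and 293 to 262 and 257 CPM. Ovol1 (ENSMUSG00000024922), with 63 to 101 reads per control library, changed by 0.11 with a 95% interval from -0.31 to 0.53. Of 18 alternative analyses, Tcfl5, Rfx2, Tbpl1, Pou5f2 and Rfx4 passed in all, Mybl1 in 15, Sox30 in 14, Crem in 12 and Taf7l in 8. The fall of Taf7l in the controls did not pass with edgeR (adjusted p = 0.0524) or DESeq2 (0.0893), nor without any single control library (0.125 to 0.244).

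In the cKO libraries 8 of the genes also rose and Taf7l fell, while 29.8% of all genes changed, 16% upward and 13.8% downward. Their median change was 0.59. Mybl1 rose by 0.61 ± 0.07 (adjusted p = 3.51e-04), Tcfl5 by 0.61, Rfx2 by 0.81 and Rfx4 by 1.26. Pou5f2 rose by 2.61 ± 0.34 from 9 and 11 reads. It would not have passed the low-read filter without the P16 libraries, so that some difference was built in here too. Taf7l fell by 0.71 ± 0.04 (adjusted p = 1.53e-05), from 251 CPM in both P14 libraries to 156 and 146. Sox30 rose by 0.36 (adjusted p = 0.0381), which did not pass with DESeq2 (0.0703) or in 5 of 8 analyses with a library removed (up to 0.238 without cKO library 1 of P14).

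In the Cre controls of the second kit, 7 of the genes rose and Taf7l fell, where 11.8% of all genes changed, 9.06% upward and 2.75% downward (1376 against 737 genes with quantile scaling). Rfx2 rose by 1.43 ± 0.19, Rfx4 by 1.49 ± 0.22, Crem by 0.99 ± 0.19 and Tcfl5 by 0.87 ± 0.15. Pou5f2 rose by 3.09, from 6 and 4 reads at P14. It passed the low-read filter through the P16 libraries only, so that some difference was built in. Sox30 rose by 0.64 and Tbpl1 by 0.50 (adjusted p = 0.0486), and Taf7l fell by 0.61 ± 0.12 (adjusted p = 0.00914). Taf7l had 223 and 187 CPM at P14 and 116 to 153 at P16, with no overlap. Tbpl1 passed in 5 of 17 alternative analyses and missed with edgeR (adjusted p = 0.0508). Mybl1, at 0.34 with a 95% interval from -0.04 to 0.73, did not pass. Whether these changes differ from those in the controls of the first kit was not tested. Of 17 alternative analyses, Rfx2 and Rfx4 passed in all, Tcfl5, Crem and Taf7l in 15 and Sox30 in 14. Pou5f2 passed in 14 of 16. Within the run that holds both P14 libraries and library 1 of P16, a comparison chosen after seeing the data, 7 changed and Taf7l fell by 0.69, where 6.13% of all genes changed. Its P16 arm is 1 library, assumed to vary like the P14 pair.

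**Figure D2:**
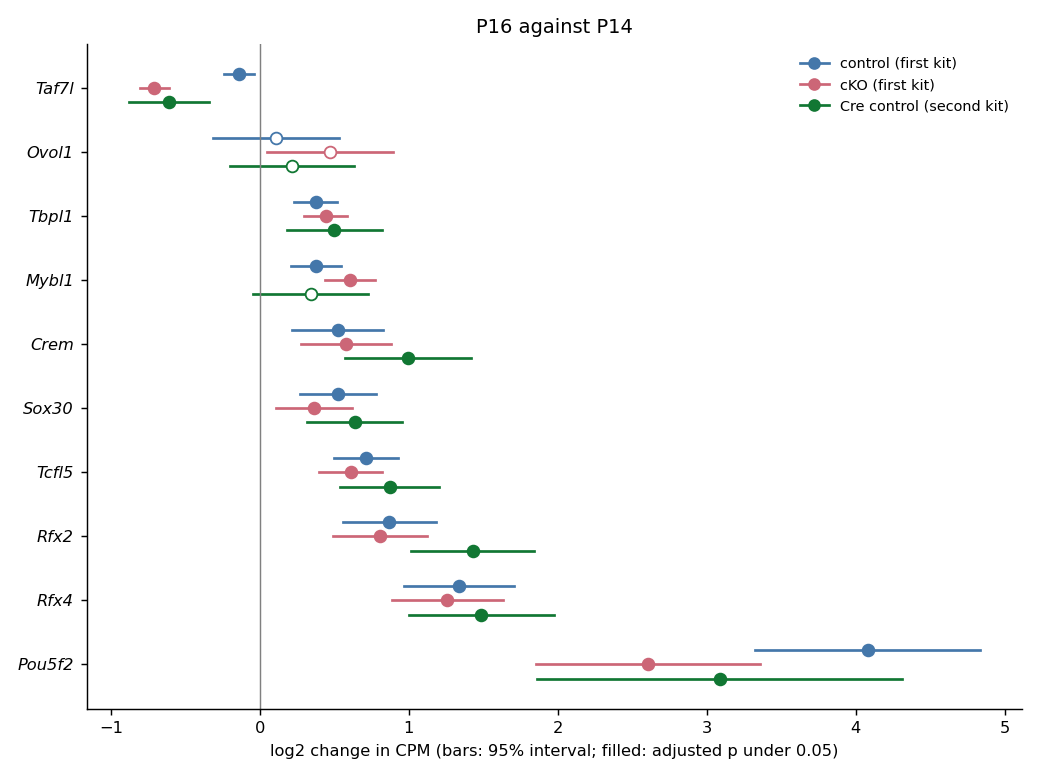
Log2 change in CPM from P14 to P16 (x axis) of each gene in the controls, the cKO libraries and the Cre controls, with 95% intervals and filled points for an adjusted p under 0.05. Taf7l is the one gene with points below 0 in all 3 series, at -0.14, -0.71 and -0.61, and Pou5f2 is farthest to the right.

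Markers of the cell types moved over the same days. All 6 pachytene markers rose in each of the 3 series, with medians of 2.02, 1.63 and 2.62 in the controls, cKO libraries and Cre controls. The 7 early prophase markers, among them Sycp1, Sycp3 and Dmc1, had medians of 0.13, -0.70 and -0.30, and 4 of them fell in the cKO libraries. Fewer cells of a type and less RNA per cell cannot be told apart in whole testis. X-linked genes tested had a median change of -0.19 in the controls, -0.15 in the cKO libraries and -0.26 in the Cre controls, against -0.01, 0.02 and 0.00 for autosomal genes. The part of these shifts in the values of the 10 genes was not tested.

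Across all 16 libraries, on log2 CPM centred within each kit, Tcfl5, Rfx2, Crem, Sox30, Tbpl1 and Rfx4 lay close together. The lowest Pearson r among their pairs was 0.92, between Sox30 and Rfx4. It was 0.99 between Tcfl5 and Rfx2, 0.98 between Rfx2 and Crem, 0.98 between Tcfl5 and Tbpl1, 0.97 between Tcfl5 and Rfx4 and 0.97 between Tcfl5 and Sox30. Taf7l ran the other way, with r of -0.72 to Tcfl5, -0.73 to Rfx2 and -0.86 to Mybl1. These are descriptions, since the points share stage, genotype and depth. By the same measure over 12175 genes, the genes most like Tcfl5 were Dis3l, Dnajc5g and Nek2 (r at or above 0.99), Ypel1 and Tkfc were among those most like Rfx2, and those most like Rfx4 were Pde1c, Tcam1 and Hsf5. Hsf5 encodes a heat shock factor of pachytene cells. For Crem they were Sephs2, Nup205 and Rpl10l, for Sox30 Tmprss12, Spata33 and Gm6653, for Tbpl1 9530077C05Rik, Nit1 and Mael, and for Pou5f2 Ccdc30, Ube2d2b and Dnah2. Taf7l was most like Nrbp1, Ddx21 and Adam22 (r of 0.99 for each), none of which leads for another of the genes. Mybl1 was most like Lcorl and Rb1cc1 (r of 0.98 and 0.97), and Ovol1 had no close match, its best being Abcd2 at 0.86, Trp63 and Palld.

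The loss of Ythdc2 was followed at P16, 3 days after the second tamoxifen dose, within the first kit. Taf7l and Pou5f2 were lower in the cKO libraries and Mybl1 and Rfx4 were higher, 4 of the 10 genes. The other 6 did not pass. Of all genes tested in this table, 38.6% changed, 18.6% upward and 19.9% downward, so the share among the 10 is near that of all genes. Their median log2 change was 0.02, against 0.00 for all genes.

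Taf7l, the TFIID subunit relative, measured 6513 and 6378 in P16 control testes, against 3904 and 3623 in cKO. Both cKO values were far below both controls. The log2 change was -0.78 ± 0.05 (SE, n = 2 and 2, adjusted p = 1.59e-07), 58.4% of control, and no other of the 10 genes had so small a p. Taf7l fell in all 15 alternative analyses, with log2 changes from -0.83 to -0.53. Of X-linked genes tested, 135 of 686 fell, 19.7%, against 20.0% of autosomal genes, and the X-linked median was 0.04.

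Pou5f2, the POU factor, measured 115 and 101 in control testes, against 66.0 and 64.2 in cKO, on 62 to 111 reads per library. Its log2 change of -0.72 ± 0.17 (adjusted p = 0.00441) is of similar size to that of Taf7l but carries a wider 95% interval, from -1.08 to -0.36. Pou5f2 lies within Fam172a on the same strand without sharing an exon, so unspliced reads of that gene could be counted for it if they reach it. In a fit over both control types with the kit as a term the change of Pou5f2 was -0.36 and did not pass (adjusted p = 0.600), while Taf7l kept its call (-0.53, 0.0160).

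Mybl1, the pachytene activator, measured 3449 and 3488 in control testes, against 4283 and 4754 in cKO, which lay above both controls. Its log2 change was 0.38 ± 0.05 (adjusted p = 1.16e-04), 130% of control. Without a trend in the variance prior the adjusted p was 0.0618, and in the fit over both control types with the kit as a term it was 0.0576. Rfx4 measured 432 and 511 in control testes, against 533 and 617 in cKO. Its log2 change of 0.29 ± 0.10 (adjusted p = 0.0340) did not pass with DESeq2 (0.0897), without control library 1 (0.302), without cKO library 2 (0.161), without a trend in the variance prior (0.202) or in the fit over both control types (0.07, adjusted p = 0.806).

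The remaining genes lay close to control. Tcfl5 measured 3505 and 3583 in control testes, against 3419 and 3690 in cKO, a log2 change of 0.00 with a 95% interval from -0.10 to 0.11. Rfx2 stood at 1751 and 1730 against 1666 and 1901, a change of 0.03 (-0.10 to 0.17). Tbpl1 stood at 2095 and 2109 against 2103 and 2138, a change of 0.01 (-0.09 to 0.12). In these 3 the groups overlapped, and no interval reached beyond 0.17 in either direction. Crem stood at 1090 and 1096 against 1116 and 1306, a change of 0.14 (-0.01 to 0.30), and Sox30 at 736 and 699 against 607 and 676, a change of -0.16 (-0.32 to -0.00059). Their groups did not overlap, and neither passed (adjusted p = 0.134 and 0.105). Crem passed without cKO library 1 (0.00165) and Sox30 without cKO library 2 (0.0195). Ovol1 stood at 84.2 and 95.5 against 116 and 92.2, with an interval from -0.17 to 0.57.

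At P14, 1 or 2 days after the tamoxifen doses, none of the 9 genes tested passed with limma, edgeR or DESeq2. Of all genes, 0.00579% passed with limma and with edgeR, and 0.0347% with DESeq2. With limma 1 of the 9, Taf7l, had an unadjusted p under 0.05, as did 410 of the 17270 genes tested. Taf7l measured 6502 and 6692 in control testes, against 5757 and 5772 in cKO, 87.4% of control (log2 change -0.19, 95% interval -0.31 to -0.08, unadjusted p = 0.00482, adjusted p = 1.00). Its groups did not overlap. Mybl1 stood at 2422 and 2542 against 2592 and 2987, and Rfx4 at 165 and 180 against 186 and 269. The intervals of these changes were -0.02 to 0.35 and -0.08 to 0.83. Pou5f2, with 3 and 7 reads against 9 and 11, was under the filter and was not tested. cKO library 2 had the highest value of the 4 libraries for 8 of the 10 genes, all but Taf7l and Ovol1. Tcfl5, Rfx2, Crem, Sox30, Tbpl1 and Rfx4 among these ran closely together, so the 8 are not separate observations. The share of all genes for which this library was highest was not counted. The summed pachytene markers were 630 and 969 CPM in the 2 cKO libraries and 617 to 705 in the controls, and the part of this in the values of the 10 genes was not tested.

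**Figure D3:**
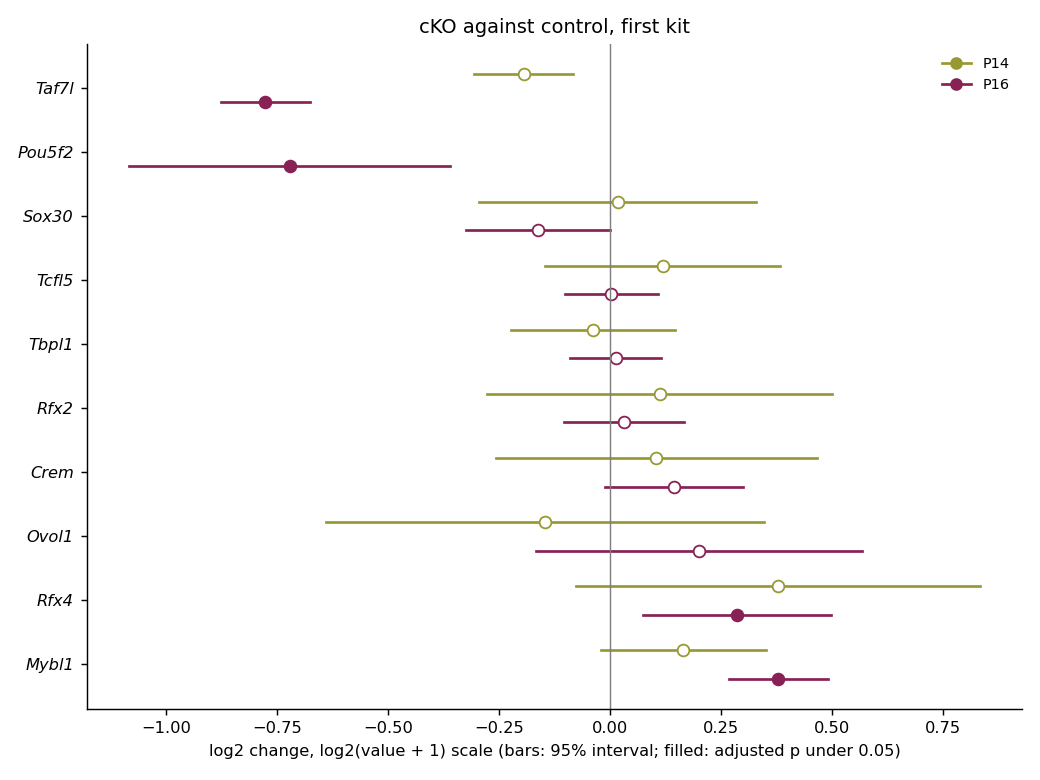
Log2 change in the cKO libraries against the controls of the first kit (x axis, on the log2(value + 1) scale) for each gene at P14 and P16, with 95% intervals and filled points for an adjusted p under 0.05. Taf7l and Pou5f2 lie at -0.78 and -0.72 at P16, Rfx4 and Mybl1 at 0.29 and 0.38, and no point at P14 is filled, where Pou5f2 was not tested.

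The change of Taf7l grew between the stages within the first kit. There the difference between the cKO effect at P16 and that at P14 was -0.57 ± 0.06 on the log2 scale (interaction, adjusted p = 0.00138). In the second kit, the cKO library lay at -0.20 from the mean of the Cre controls at P14 and at -0.24 at P16. These are log2 differences of 1 library per stage, without a test. Taf7l was the 1 gene of the 10 for which the first-kit difference passed, where 7.39% of all genes tested did. Taf7l also passed with edgeR, with DESeq2 and without each library in turn, but not without a trend in the variance prior (adjusted p = 0.0574). Pou5f2 had a difference of -1.47 ± 0.48 (adjusted p = 0.0913), measured from 3 and 7 reads in the P14 controls, so its size rests on counts near 0. Without control library 2 of P14, which leaves the library with 3 reads as the whole baseline, it was -1.99 (adjusted p = 0.0376). For Tcfl5 the difference was -0.10, and it was -0.30 without cKO library 1 of P14, which leaves 1 cKO library at that stage. Mybl1 had a difference of 0.23 with a 95% interval from -0.01 to 0.46.

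Markers moved beside these changes at P16. All 7 early prophase markers fell, with a median of -0.87 and sums of 1096 and 1173 CPM in the cKO libraries against 1510 and 1593 in the controls. Spermatogonial markers summed to 321 and 328 against 404 and 413, and 5 of 6 fell. Of the pachytene markers 3 rose and 1 fell, with sums of 1652 and 1849 against 1579 and 1597. Of the Sertoli cell markers 6 of 8 rose, with sums of 767 and 861 against 629 and 649. Macrophage markers summed to 49.1 and 49.2 against 34.7 and 36.4. The part of these cell types in the changes of the 10 genes was not tested.

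Against the Cre controls at P16, none of the 10 genes passed with limma or edgeR, where 9.07% of all genes did with limma. DESeq2 called Mybl1, Rfx2 and Sox30, where it called 21.8% of all genes. With limma these 3 had an unadjusted p under 0.05, as did 7364 of the 19200 genes tested. This table shares cKO libraries 1 and 2 with the table above. In it those libraries differ from every Cre control in the kit, so kit and genotype cannot be told apart for them.

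Sox30 had values of 755 to 1039 in the 4 Cre controls (median 914) and of 498, 558 and 716 in the cKO libraries. All 3 cKO values were below all 4 controls. The log2 change was -0.62 ± 0.16 (adjusted p = 0.0501). Rfx2 had values of 1914 to 3141 in the Cre controls (median 2617) and of 1365, 1567 and 1760 in the cKO libraries, again without overlap, and changed by -0.69 ± 0.19 (adjusted p = 0.0551). Mybl1 had values of 1447 to 2209 (median 1662) against 3508, 3919 and 2148, where the second-kit cKO library, the last of these, fell within the control range (log2 change 0.85, adjusted p = 0.0550). Without cKO library 3 all cKO libraries are of the first kit, and Mybl1, Rfx2, Crem and Sox30 passed, 4 of 10 genes where 49.5% of all genes did. Taf7l changed by 0.06 in this table, 104% of the Cre controls, with a 95% interval from -0.28 to 0.39. Pou5f2 changed by -0.12, and by -0.61 (adjusted p = 0.116) without Cre control library 4, which had 21.4 against 70.5 to 101 in the other Cre controls.

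The cKO library of the second kit can be set beside Cre controls of its own kit, with 1 library and no test. At P16 it lay below all 4 Cre controls for Taf7l (2274 against 2427 to 3177, a log2 difference of -0.24), Rfx2 (-0.52), Tcfl5 (-0.37), Sox30 (-0.33) and Tbpl1 (-0.25). It lay above all 4 for Ovol1 (131 against 97.7 to 109). For Mybl1 it was above 3 of the 4 (2148, log2 difference 0.32), for Crem and Rfx4 above 2, and for Pou5f2 above 1 (64.9, in a range of 21.4 to 101). The share of all genes for which this library lay outside the 4 Cre controls was not counted. Early prophase markers summed to 669 CPM in this library and to 724 to 1001 in the Cre controls, and pachytene markers to 1184 and to 1134 to 2116. Cre control libraries 2 to 4 were sequenced in another run than the cKO library.

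**Figure D4:**
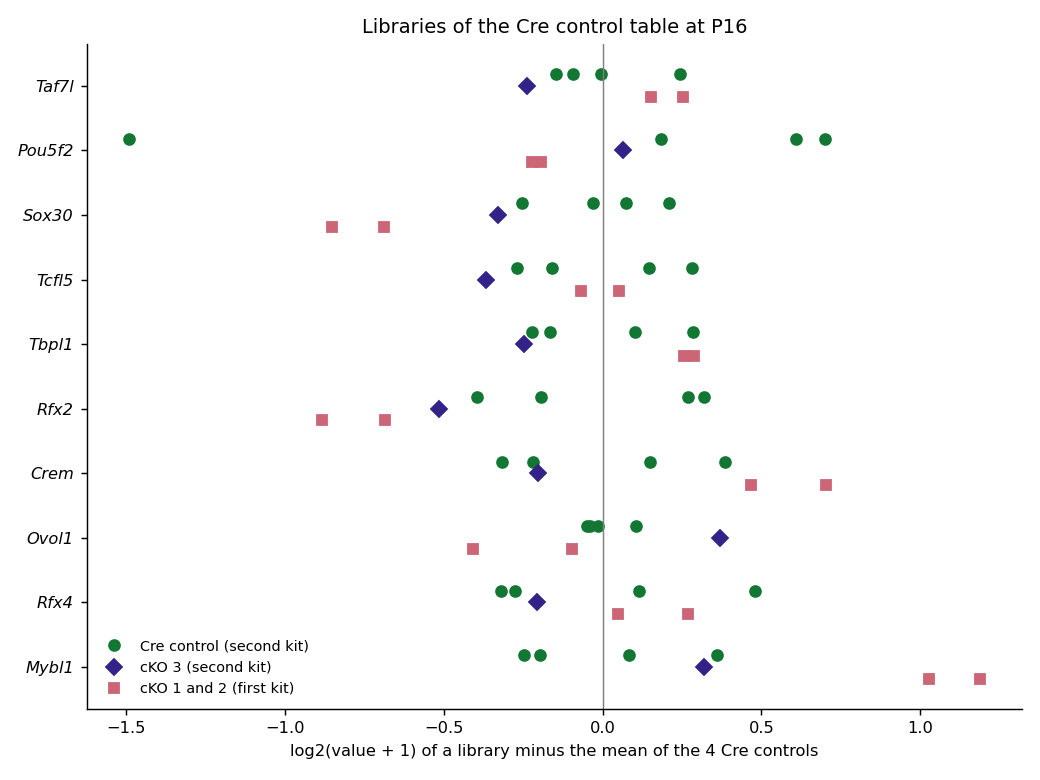
Log2(value + 1) of each library of the P16 table with Cre controls, minus the mean of the 4 Cre controls (x axis), for each gene, with circles for Cre controls, a diamond for cKO library 3 of the same kit and squares for cKO libraries 1 and 2 of the other kit. For Mybl1 the squares lie above every circle while the diamond, at 0.32, lies among the circles. For Taf7l the diamond lies at -0.24, left of the circles, and the squares lie right of 0.

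At P14 none of the 9 genes tested passed against the Cre controls with limma, edgeR or DESeq2. None had an unadjusted p under 0.05 with limma, where 705 of the 18196 genes tested did. With the limma adjusted p, 0% of all genes passed. Sox30 had 491 and 580 in the Cre controls against 336, 429 and 439, and Ovol1 80.7 and 80.0 against 53.5, 59.6 and 58.6, both without overlap. Their intervals ran from -0.88 to 0.04 and from -1.05 to 0.09. Taf7l had 4144 and 3452 in the Cre controls against 4661, 4697 and, in the second-kit library, 3296. Without cKO library 3, where kit and genotype cannot be told apart, Mybl1 and Crem passed, 2 of 9 where 34.9% of all genes did.

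Relatives of these factors were counted over a fixed list of 14 genes at P16, within the first kit, of which 13 were tested, 5 rose and 4 fell. These counts and those of the lists that follow stand against 18.6% of all genes that rose and 19.9% that fell. In the fit over both control types with the kit as a term, 13.6% of all genes changed and 3 of these relatives. Rfx5, an RFX factor of MHC class II genes, measured 868 and 835 in control testes, against 1323 and 1423 in cKO (log2 change 0.69 ± 0.06, adjusted p = 4.51e-06). It kept its call in that fit (0.51, adjusted p = 0.0138). Sox5 rose by 0.62. Ovol2 fell by 1.01, from 94.6 and 80.3 to 57.3 and 32.1, and Pou5f1, the pluripotency factor, fell by 0.74. These 3 did not pass in that fit (adjusted p = 0.0946, 0.308 and 0.369), nor did Ovol2 without a trend in the variance prior (0.117).

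Of 14 partners in TFIIA, TFIID and coactivators, 13 were tested, 3 rose and 6 fell, with a median of -0.17. Taf4b, another germ-cell TFIID subunit, measured 3926 and 3774 in control testes, against 2156 and 2224 in cKO. This fall, of -0.81 ± 0.05 (adjusted p = 1.11e-07), was of about the size of that of Taf7l. Gtf2a1, a TFIIA subunit gene, rose by 0.50 ± 0.04 (adjusted p = 4.22e-06) and its germ-cell relative Gtf2a1l by 0.29. Kif17, whose product moves the CREM coactivator ACT, fell by 0.67. In the fit over both control types 4 partners passed, Taf4b (-0.49, adjusted p = 0.0316) and Gtf2a1 (0.41, 0.00357) among them, while Gtf2a1l (at 0.08) and Kif17 (adjusted p = 0.0837) did not. Without a trend in the variance prior 5 passed, where 10.0% of all genes did.

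Of 19 other regulators of spermatocytes and spermatids, 18 had a matching symbol and were tested, and 4 rose and 9 fell, with a median of -0.25. Ctcfl (BORIS), the germ-cell relative of CTCF, stood at 390 and 447 against 78.6 and 115 (log2 change -2.12 ± 0.16, adjusted p = 1.20e-06). Prdm9, which sets the sites of meiotic recombination, stood at 864 and 886 against 292 and 273 (-1.63 ± 0.08, adjusted p = 2.31e-08). It is also 1 of the early prophase markers above. Hsf5 rose by 0.36. Spz1, 1 of the 4 counted as higher, stood at 8.31 and 4.73 against 15.5 and 17.6 and passed the filter on low values through the cKO libraries alone, so that a difference was built in, and it did not pass without control library 2 (adjusted p = 0.143). In the fit over both control types 8 of these regulators passed (2 higher, 6 lower), Ctcfl and Prdm9 among them, while Hsf5 (0.12, adjusted p = 0.646) did not. Without a trend in the variance prior 4 passed, all of them lower, where 10.0% of all genes passed.

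Known downstream genes gave mixed counts against control. Of 9 MYBL1-dependent genes, 3 rose and 1 fell, with a median of 0.00: Tdrd6 rose by 0.53 ± 0.05 and Tdrd5 by 0.29, both genes of the germ granule that houses piRNA proteins, and Ccna1, the meiotic cyclin, fell by 0.84. With a replicate block 7 of the 9 passed, where 45.6% of all genes did. Without a trend in the variance prior 2 passed, where 10.0% of all genes did. In the fit over both control types 0 passed (Tdrd6 0.40, adjusted p = 0.361, Tdrd5 0.06, 0.806, and Ccna1 -0.48, 0.486). Of 10 CREM-dependent genes 4 were tested, and Pdha2 rose by 0.17 (adjusted p = 0.0280), a call lost without either control library (0.207 and 0.0600) or without cKO library 2 (0.156). Of 10 RFX-dependent cilium genes, Tekt4 rose by 0.88 and 3 fell, among them Dnali1, an axonemal dynein gene (-0.70 ± 0.09), and Ift172 (-0.19). In the fit over both control types 1 passed, Dnali1 (-0.86, adjusted p = 0.0427). Tekt4 was at 0.32 there (0.569). In the cKO library of the second kit it lay in the other direction, at -0.41 (log2) from the mean of the Cre controls. Gtf2a1l (-0.20), Hsf5 (-0.20), Tdrd5 (-0.24), Pdha2 (-0.34) and Pou5f1 (0.16) also lay in the other direction in that library, without a test. The other genes named from these lists kept their direction, among them Taf4b (-0.10) and Ctcfl (-0.40). With the trend in the variance prior off, 2 of the 10 RFX-dependent genes passed, where 10.0% of all genes did. Ift172 lost its call there (adjusted p = 0.196). Between P14 and P16, 8 of the 9 MYBL1-dependent genes rose in the controls, in the cKO libraries and in the Cre controls alike, with medians of 0.77, 0.93 and 1.14, and Piwil1 and Ccna1 of this list are also pachytene markers. Of the RFX-dependent cilium genes, 8, 9 and 6 of 10 rose. The counts of both lists between the stages stand against 13.3%, 16% and 9.06% of all genes that rose in the controls, cKO libraries and Cre controls.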

How the data were processed

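RNA from whole testis was sequenced after ribosomal RNA depletion. Per the submitters' processing notes, Trim Galore, STAR, HTSeq and DESeq2 were used on build GRCm39. Versions, annotation release and strand setting are not given in the sources used here, although the library kit named in the labels' protocols marks strand. If strand was not used in counting, antisense reads of Tcfl5 (Col9a3), Tbpl1 (Slc2a12), Ovol1 and Crem could be included, since these genes share exonic sequence with genes on the opposite strand. The deposited values are a signal, namely reads per gene divided by a scaling factor of the library. In all 20 columns of the 4 deposited tables, 100% of values above 0 were within 0.05 of a whole number of reads, so whole reads were recovered. Every column was matched to a sample by name. Rows with mapping summaries were left out of tests and library sizes.

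Gene symbols came from GENCODE M21 and matched 52081 of 55414 IDs. Exon lengths also came from that release, and promoter sequences from RefSeq GRCm38.p6. Within a table, limma 3.58.1 (lmFit, eBayes with trend, R 4.3.3) was run on log2(value + 1) for genes that reached 10 in 2 or more libraries. Fold changes on this scale understate the change of low genes. Stages were compared with limma on log2 CPM (TMM by edgeR 4.0.16, prior count 1) of recovered reads, within a kit; the cKO effects of the 2 stages were compared by an interaction term. P-values were adjusted by Benjamini-Hochberg over all genes tested, with a threshold of 0.05. Errors of log2 changes are standard errors, and intervals are 95% intervals of the same fits. edgeR's quasi-likelihood test and DESeq2 1.42.0 on recovered reads were alternatives, beside other pseudocounts, filters and scalings, eBayes with the trend off, a replicate block, a kit term and the removal of each library in turn. Where an arm was left with 1 library, its spread was assumed to be that of the others. The tests were tried on simulated data.

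The 10 genes and the gene lists were chosen with earlier results of these data known. All 10 were named in each comparison. From each list, the 2 genes that rose most and the 2 that fell most against control at P16 were named where they passed, and for each of the 10 the 3 genes with the highest correlation and a mean of at least 5 CPM; 2 of the genes so chosen are not reported here. Meiosin, of the list of other regulators, had no matching symbol.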

Additional observations from a re-analysis of the deposited data

Results flagged for a closer look

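For Taf7l and for Ythdc2 itself, the cKO effect against control differed between the stages in the interaction test, which covers the first kit only. The difference, P16 minus P14, was -0.57 for Taf7l and -0.72 for Ythdc2 on the log2 scale, from 87.4% to 58.4% of control and from 32.9% to 19.8% of control, respectively. With limma the adjusted p was 0.00138 for Taf7l and 0.00822 for Ythdc2, and it was 0.0550 for Ythdc2 without control library 1 of P16. In the 1 group of 4 libraries, the Cre controls at P16, no library of the 10 genes stood apart by Dixon's criterion at the 95% level. For Pou5f2 library 4 had 21.4 against 70.5 to 101, and this gap took up 0.615 of the range.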

How the results depend on the processing

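The fall of Taf7l against control at P16 passed in every alternative run, and its larger fall at P16 than at P14 in every one but eBayes without trend. Changes below are log2 values. The number of the 10 genes called fell from 4 to 2 against control at P16 with eBayes without trend, from 1 to 0 for the difference between stages, from 9 to 5 between the stages in the controls and from 8 to 2 in the Cre controls. Of all genes, 10.0%, 0.727%, 11.7% and 4.80% were called without trend, respectively. In a fit of all P16 libraries with both control types and the kit as a term, 1 gene (Taf7l) was called against control, and the direction turned for Tcfl5 (-0.15), Rfx2 (-0.20), Crem (-0.0023), Tbpl1 (-0.094) and Pdha2 (-0.048). The same fit at P14 turned Sox30 (-0.11). Quantile scaling turned Tcfl5 at P16 (-0.00023) and Sox30 at P14 (-0.0025), both near 0. Against the Cre controls at P16, 3 genes were called with a pseudocount of 10, 3 with quantile scaling, 3 with DESeq2 and 1 with a minimum value of 50. Of all genes, 17.1%, 16.1%, 21.8% and 13.8% were called there, respectively. There, quantile scaling turned Ovol1 (0.21) and Pou5f2 (0.19), and edgeR turned Ovol1 (0.018). With the kit as a term, which leaves cKO library 3 against the Cre controls, the direction turned at P16 for Crem (-0.20), Taf7l (-0.24), Tbpl1 (-0.25), Rfx4 (-0.21), Ovol1 (0.37) and Pou5f2 (0.066). At P14 it turned for Mybl1 (-0.054), Tcfl5 (-0.16), Crem (-0.034), Taf7l (-0.20), Tbpl1 (-0.15) and Rfx4 (-0.53). Beyond the makeup of these fits, the cause was not tested.

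Leaving out each library gave these ranges where a direction turned. Against control at P16 they were -0.052 to 0.058 for Tcfl5 and -0.063 to 0.13 for Rfx2. Against control at P14 they were -0.054 to 0.29 for Tcfl5, -0.15 to 0.37 for Rfx2, -0.14 to 0.35 for Crem, -0.16 to 0.19 for Sox30, -0.33 to 0.036 for Ovol1 and -0.13 to 0.054 for Tbpl1. Against the Cre controls at P16 they were -0.043 to 0.20 for Taf7l, -0.25 to 0.14 for Ovol1, -0.61 to 0.12 for Pou5f2 and -0.079 to 0.20 for Rfx4, and at P14 -0.036 to 0.26 for Tcfl5 and -0.20 to 0.39 for Rfx4. For the difference between stages they were -0.30 to 0.059 for Tcfl5, -0.34 to 0.18 for Rfx2, -0.21 to 0.28 for Crem, -0.048 to 0.15 for Tbpl1 and -0.36 to 0.17 for Rfx4. For Ovol1 between the stages in the controls the range was -0.072 to 0.29. Against the Cre controls at P16, from 0 to 4 genes of the set were called, where 0% to 49.5% of all genes were. At P14, leaving out a cKO library, from 0 to 2 were called, where 0% to 34.9% of all genes were. The upper ends came without cKO library 3, where kit and genotype cannot be told apart. Counts are not given for the comparisons of stages, where removing a library can leave 1 in an arm.

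Whether libraries with the same replicate number are paired is not given in the sources used here. The correlation of deviations of same-numbered libraries was 0.20 at P14 and 0.08 at P16 against control and of mixed sign against the Cre controls. Against control, with 2 libraries per arm, the other pairs mirror these values, so the correlations cannot settle pairing. With a replicate block, 6 of the 10 genes were called against control at P16 (Crem and Sox30 joined) where 45.6% of all genes were, 4 against the Cre controls at P14 where 38.3% were, and none against the Cre controls at P16, where Rfx4 turned (-0.055). In the tables with Cre controls the block sets cKO library 3 apart at P14, so that kit and genotype cannot be told apart there.

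Counts over all genes moved as well. Of all genes, 6939 were called against control at P16, 1806 without trend, 4591 without control library 1 and 2701 with both control types. Against the Cre controls at P16 the count of 1741 went to 0 without any single Cre control library, without cKO library 1 or 2, or with the replicate block, to 1 with the kit as a term, and to 9427 without cKO library 3. It was 3277 with a pseudocount of 10, 917 without a filter, 3094 with quantile scaling, 4188 with DESeq2 and 32 without trend. For the difference between stages the count of 1373 ranged from 135 without trend to 3199 without cKO library 1 of P14. Between the stages in the controls, 3714 genes became 1640 to 2166 without trend or without 1 of 3 control libraries. Low reads limited Ovol1 and, at P14, Pou5f2.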
